A study of Caenorhabditis elegans with 6 samples.

Results

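Libraries numbered 1 were compared with libraries numbered 2 in an X-ray study of the nematode Caenorhabditis elegans. Young adult hermaphrodites were given doses of 0, 200 or 400 Gy, the gray (Gy) being the unit in which absorbed radiation is stated. All 6 libraries of the study took part, 3 with each number, 1 of each at every dose. The members were chosen by the number in the library's label alone. About 1000 worms of matched age, 24 h after the L4 stage (the last larval stage), were irradiated, and total RNA was taken from the worms, with no dissection stated. No strain, genotype, transgene or mutation is given in the labels. The 3 groups share everything the labels state except the dose, and the 0 Gy group is the control. The labels do not say whether a number stands for a culture, a day or a sequencing run, so the p-values cover variation among these 6 libraries only, and it may be technical.

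In an adult hermaphrodite a large share of all nuclei belongs to the germline. Stem cells at the far end of each gonad arm enter meiosis, and the growing oocytes fill with maternal messenger RNA and take up yolk, which the intestine secretes. RNA-binding proteins such as the OMA, PUF and MEX proteins hold that maternal RNA silent until it is needed. Sperm are made once, before the switch to oocytes, and are stored. Genes for oocyte, sperm, yolk and cuticle products are therefore commonly read as signs of a worm's stage. In whole-worm RNA, fewer cells of a type and less RNA per cell cannot be told apart.

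Depth and composition set the frame for all values. Total counts ran from 9554479 to 12315765 per library, and 13487 of 45292 listed genes had enough counts to be tested. Levels are given as CPM, the count divided by the library's TMM-scaled total (TMM is the trimmed mean of M-values, which evens out composition) and put on a scale of 1000000. Pairs of levels are given as first against second library. Differences are log2 ratios of the first over the second library, fitted over the 3 doses with dose as a block and given ± standard error (SE, n = 3 pairs). Positions refer to the WBcel235 build. Second libraries detected more genes at each dose, with 18577 against 19267 at 0 Gy, 17318 against 18711 at 200 Gy and 18127 against 19340 at 400 Gy for first against second after thinning to one depth. The adult collagen gene col-19 and the oocyte gene oma-1 were present in all 6 libraries, while the zygotic gene med-1 had 0 counts in each. Early zygotic genes were not absent as a group, since 18 of 39 listed had enough counts to be tested. Among these, vet-2 was at 30.7 against 51.9 CPM and pes-10 at 6.21 against 9.45 CPM at 0 Gy. Near-identical genes (the msp family, oma-1 and oma-2, egg-4 and egg-5, vit-3, vit-4 and vit-5) may share reads.

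Genes of the female germline were higher in the first libraries, and the medians of their lists had the same sign at every dose. The receptor rme-2, cytoplasmic oocyte regulators and eggshell genes led this group. Neuronal genes lay on the other side by list median, as did sperm genes at the irradiated doses. The median of all tested genes was also slightly below 0 at every dose (-0.0915, -0.0762 and -0.048 at 0, 200 and 400 Gy). By the edgeR quasi-likelihood test with Benjamini-Hochberg adjustment at 0.05, 1291 genes were called, 803 higher in the first libraries (5.95% of genes tested) and 488 lower (3.62%). The adjusted p-values of all 1291 calls lay between 0.0455 and 0.05, since the adjustment gave many genes one value. At a threshold of 0.01 there were 0 calls, and 5108 genes had an unadjusted p under 0.05. Without the 200 Gy pair, or with ribosomal RNA genes removed before scaling, there were also 0 calls, with 3249 and 4983 genes at an unadjusted p under 0.05. The sign was the same for 1288 and 1289 of the 1291 genes in these fits, which share libraries with the full fit that chose the genes, so their agreement is no sign of stability. Upper-quartile scaling moved the median of all genes from -0.13 to -0.33 and turned the split to 721 higher and 2228 lower.

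The 3 pairs of libraries share no library, so each dose gave its own reading of the difference. Across 13487 genes the log2 ratios of the 0 and 200 Gy pairs had a Pearson correlation of 0.516. The value was 0.406 for 0 and 400 Gy, and 0.603 for 200 and 400 Gy, and the Spearman values were 0.541, 0.487 and 0.679. These correlations are across genes, which are not independent replicates. The sign was the same for 71.6%, 71.1% and 77.6% of genes in that order. At all 3 doses 3714 genes were higher in the first library (27.5%) and 4399 were lower (32.6%). The 200 Gy pair was the widest apart, with 29.4% of genes differing by more than 1 on the log2 scale, against 8.1% at 0 Gy and 15.4% at 400 Gy. Of the spread of log2 CPM over genes and libraries, dose held 75.5%, the library number 16.3% and the rest 8.26%.

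**Figure D1:**
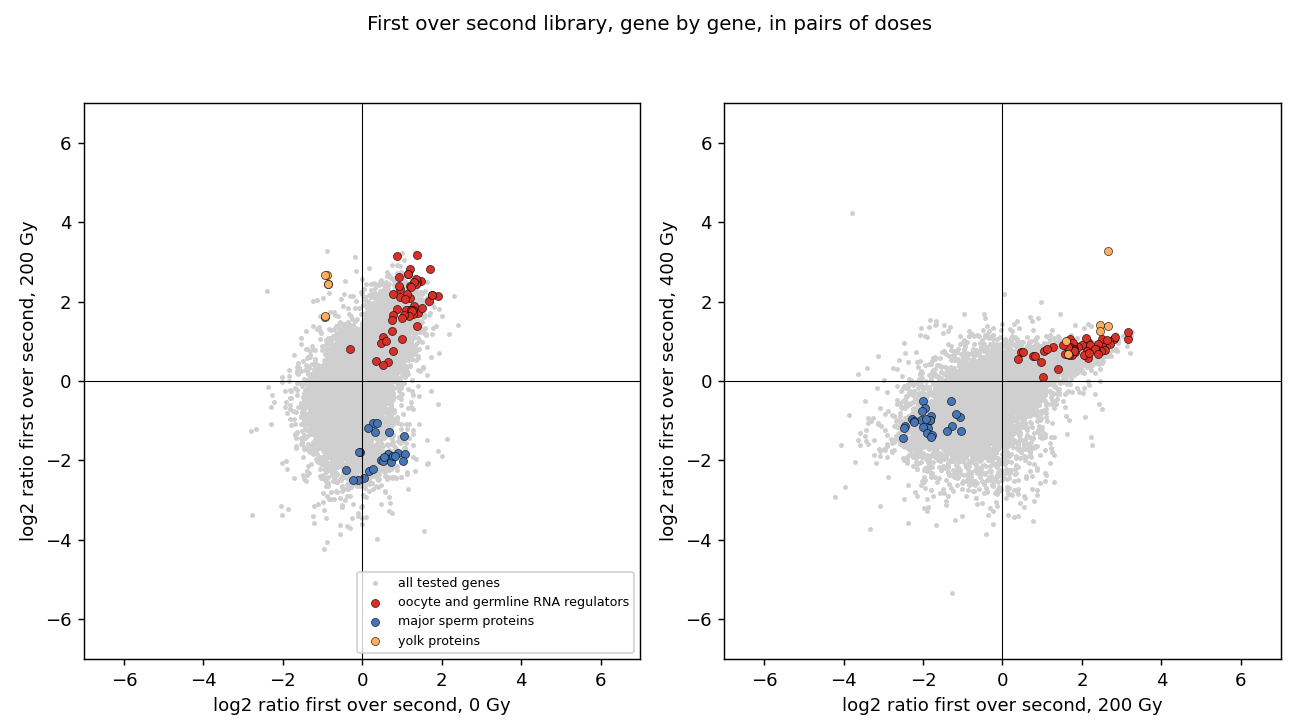
Each point is a gene, placed by its log2 ratio of first over second library at 2 doses (0 and 200 Gy on the left, 200 and 400 Gy on the right). Oocyte and germline RNA regulators (red) lie at the upper right in both panels, except ego-1 on the left, while yolk genes (orange) and most major sperm protein genes (blue) change sides between 0 and 200 Gy.

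Oocyte and germline RNA regulators were higher in the first libraries almost without exception. Of 52 tested members, 45 were called higher in the first libraries and 0 lower, against 5.95% and 3.62% of all genes. Their median difference was 1.3, and the median by dose was 1.15 at 0 Gy, 1.87 at 200 Gy and 0.8 at 400 Gy. Higher levels in the first library at all 3 doses were seen for 51 of 52 members, the exception being ego-1, an RNA-directed RNA polymerase gene of the germline. The 7 members not called were fbf-1, etr-1, nos-2, fbf-2, puf-8, cey-3 and ego-1, named here after their values were seen. At an unadjusted p under 0.05 there were 50 members, all higher, beside 5108 of all 13487 genes in either direction. Together they held 1.83% against 0.902% of all counts at 0 Gy, 1.36% against 0.569% at 200 Gy, and 2.14% against 1.29% at 400 Gy (exact permutation test, two-sided p = 0.25, the smallest possible). Without the 200 Gy pair the count called was 0 and the median 1.05.

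The yolk receptor gene rme-2 (chromosome IV, 5470029 to 5473088, plus strand), through which oocytes take up yolk, stood at 686 CPM in the first and 211 CPM in the second library of the unirradiated worms. Its levels were 886 against 126 CPM at 200 Gy, and 1588 against 769 CPM at 400 Gy. The first library was above the second within every dose, though the ranges over doses overlapped, and the fitted difference was 1.85 ± 0.34 (adjusted p = 0.0455). For oma-1 (chromosome IV, 8889086 to 8890532, plus strand), a zinc-finger gene of oocyte maturation, levels were 210 against 65.6 CPM at 0 Gy, 178 against 43.8 at 200 Gy, and 279 against 148 at 400 Gy. Every first library lay above every second library, with a difference of 1.54 ± 0.25 (adjusted p = 0.0455). Its near-copy oma-2 differed by 1.39 ± 0.22 (adjusted p = 0.0455).

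Regulators of translation followed the same order. For puf-5 (chromosome II, 8575577 to 8577416, plus strand), a Pumilio-family gene of late oogenesis, the first libraries held 657, 715 and 820 CPM at 0, 200 and 400 Gy and the second 175, 161 and 412. The groups did not overlap, and the difference was 1.69 ± 0.27 (adjusted p = 0.0455). The early-embryo regulators mex-1 and mex-3 differed by 1.5 ± 0.34 and 1.46 ± 0.25 (adjusted p = 0.0455 for each). The oocyte gene lin-41, which holds oocytes back from early maturation, was at 98.7 against 53.6 CPM at 0 Gy, 102.7 against 11.4 at 200 Gy, and 486 against 208 at 400 Gy. Its difference of 1.70 ± 0.40 (adjusted p = 0.046) was widest at 200 Gy. Among members named after their values were seen, cgh-1, a helicase gene of germline RNA granules, differed by 1.85 and gld-1, a repressor of translation in early meiosis, by 1.65.

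The stem-cell receptor gene glp-1, the Notch receptor that keeps germline stem cells dividing, was likewise higher in the first libraries. It read 229 against 126 CPM at 0 Gy, 64 against 18.1 at 200 Gy, and 393 against 231 at 400 Gy. Levels at 200 Gy were below those of the other doses in both libraries, and the difference between numbers was 1.13 ± 0.25 (adjusted p = 0.0455).

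**Figure D2:**
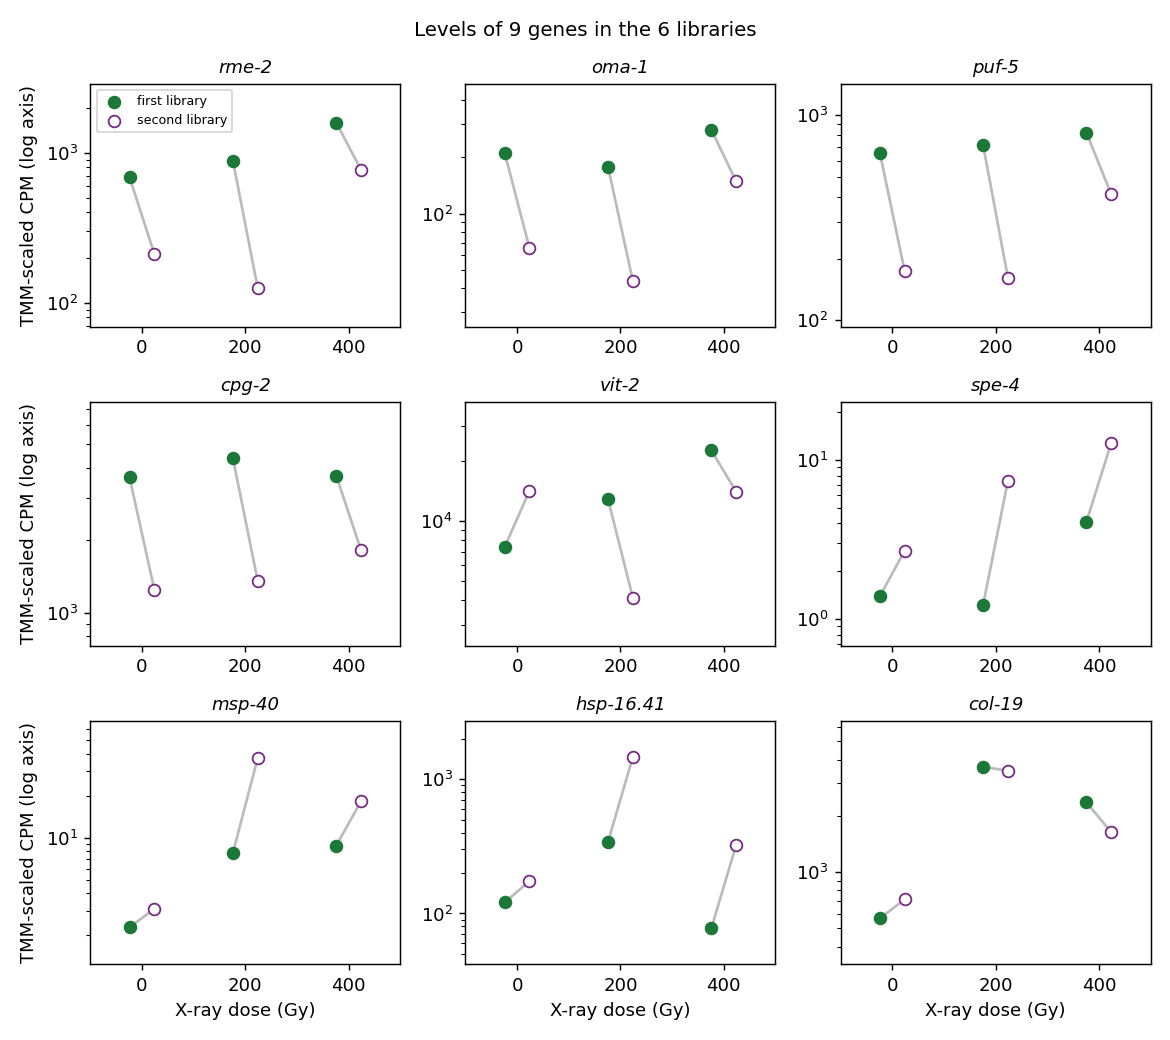
TMM-scaled CPM (log axis) of 9 genes against X-ray dose, with filled points for the first and open points for the second library, joined within a dose. The genes rme-2, oma-1, puf-5 and cpg-2 are higher in the first library at every dose, spe-4, msp-40 and hsp-16.41 are lower at every dose, and vit-2 and col-19 change sides.

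Eggshell genes went with the oocyte regulators. Of 21 tested members 12 were called higher (57.1%, against 5.95% of all genes) and 0 lower (against 3.62%). At all 3 doses 17 were higher, against 27.5% of all genes. Lower at all 3 were 2, against 32.6% of all genes (cpg-7 and cpg-9, named after their values were seen). The chondroitin proteoglycan gene cpg-2 (chromosome III, 7102236 to 7103986, minus strand), whose product is part of the inner eggshell, was at 3641, 4379 and 3708 CPM in the first libraries and 1248, 1361 and 1820 in the second at 0, 200 and 400 Gy. First and second libraries did not overlap (difference 1.42 ± 0.26, adjusted p = 0.0455). The pseudophosphatase genes egg-4 and egg-5, which act when the egg is activated, differed by 1.40 ± 0.24 and 1.5 ± 0.25, and egg-6 by 1.71 ± 0.29 (adjusted p = 0.0455 for each). Outside the list, gfat-2, which codes for an enzyme of amino sugar synthesis and so of chitin precursors, differed by 1.44 ± 0.24 (adjusted p = 0.0455).

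DNA replication and mitosis genes act in the adult mainly in the germline. Of 35 tested members 16 were called higher in the first libraries (45.7%, against 5.95% of all genes) and 0 lower (against 3.62%). At all 3 doses 34 were higher, against 27.5% of all genes. The median difference of the list was 0.90. The replicative helicase gene mcm-7 read 318 against 154 CPM at 0 Gy, 332 against 60.9 at 200 Gy, and 583 against 304 at 400 Gy, a difference of 1.47 ± 0.31 (adjusted p = 0.0455). Its partner mcm-2 differed by 1.45 ± 0.31, the sliding clamp gene pcn-1 by 1.03 ± 0.21 and the cyclin gene cyb-3 by 1.25 ± 0.26 (adjusted p = 0.0455 for each). In all 4 of these genes every first library was above every second one.

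Genes of meiotic chromosomes differed less, with a median of 0.46. Of 32 tested, 6 were called higher (18.8%, against 5.95% of all genes) and 0 lower (against 3.62%). Those called include xnd-1, a regulator of crossover placement, at 1.40 ± 0.29, plk-2, a polo kinase of chromosome pairing, at 1.26 ± 0.24, and the axis gene htp-3 at 1.14 ± 0.25 (adjusted p = 0.0455 for each). The kinase gene chk-2 was low throughout, at 2.24 to 15.9 CPM, and differed by 1.18 ± 0.28 (adjusted p = 0.0455). Synaptonemal complex genes syp-1, syp-2, syp-3 and syp-4, named after their values were seen, ranged from -0.22 to 0.67 and none was called. Meiotic genes thus covered a range from the size of the oocyte regulators to near 0.

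Genes of the somatic gonad had mixed values. Of 19 tested genes 3 were called higher (15.8%, against 5.95% of all genes) and 1 lower (5.26%, against 3.62%). Those higher were hmp-2, a beta-catenin gene of cell junctions, at 1.09 ± 0.20 (adjusted p = 0.0455), inx-22, a gap junction gene that acts in oocytes, at 0.92 ± 0.19 (adjusted p = 0.0455), and lin-3, the epidermal growth factor gene, at 0.89 ± 0.24 (adjusted p = 0.049). The list's other gap junction genes inx-14, inx-8 and inx-9, named after their values were seen, were at 0.47, 0.09 and -0.06. None of them was called. The one lower was spv-1, a regulator of contraction in the spermatheca, at -1.11 ± 0.27 (adjusted p = 0.0474).

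By list median, sperm genes went the other way at the irradiated doses and not at 0 Gy. The 25 tested major sperm protein genes, which code for the cytoskeleton of crawling sperm, had a median ratio of 0.48 at 0 Gy, -1.90 at 200 Gy and -1.0 at 400 Gy. Of the 25, 1 was called lower (4%, against 3.62% of all genes) and 0 higher (against 5.95%). The one called was msp-40, at 2.29 against 3.09 CPM at 0 Gy, 7.78 against 37.2 at 200 Gy, and 8.79 against 18.2 at 400 Gy (difference -1.32 ± 0.35, adjusted p = 0.0489). Its level was low at 0 Gy in both libraries, and the share of all counts held by the 31 listed msp genes was at most 0.0449%, in the second 200 Gy library. That share was lower in the first library at 200 and 400 Gy and higher at 0 Gy (exact permutation test over swaps within doses, two-sided p = 0.5, smallest possible 0.25). With the trend on coding length removed, the median difference of the msp genes was -0.45 in place of -0.87. At an unadjusted p under 0.05 there were 8 of 25, all lower, a share below that of all genes in either direction (5108 of 13487).

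Of 43 other sperm genes tested, 6 were called lower (14%, against 3.62% of all genes) and 0 higher (against 5.95%). At all 3 doses 14 were lower, the same share as the 32.6% of all genes, and 3 were higher, against 27.5%. At an unadjusted p under 0.05 there were 23 lower and 3 higher of 43, beside 5108 of all 13487 genes in either direction. The presenilin gene spe-4, needed for sperm organelles, was at 1.39 against 2.69 CPM at 0 Gy, 1.23 against 7.40 at 200 Gy, and 4.09 against 12.8 at 400 Gy (difference -1.69 ± 0.36, adjusted p = 0.0455). The MSP-domain gene msd-2 differed by -1.81 ± 0.41 and spe-11, whose product the sperm brings to the embryo, by -1.33 ± 0.28 (adjusted p = 0.0455 for each). Higher than these was swm-1, a protease inhibitor that restrains sperm activation, at 28.8 to 211 CPM, with a difference of -1.1 ± 0.20 (adjusted p = 0.0455). The phosphatase gene gsp-3 (-0.81 ± 0.31, adjusted p = 0.0985) and the fertilization gene spe-9 (-0.55 ± 0.49, adjusted p = 0.425) were not called. The male seminal protease gene try-5 stayed at 0.55 to 2.82 CPM in all 6 libraries. The 3 members higher at all doses, spe-44, spe-39 and fog-1, named after their values were seen, act early in spermatogenesis or in sex determination (spe-44, fog-1) or in vesicle traffic (spe-39), and none was called.

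Yolk genes had the widest gap between doses and changed sides. Vitellogenins, the yolk proteins, are made in the intestine of the adult hermaphrodite. For vit-2 the first and second libraries held 7400 against 14166 CPM at 0 Gy, 12863 against 4128 at 200 Gy, and 22605 against 14044 at 400 Gy. The first library was the lower at 0 Gy and the higher at both other doses, and the fitted difference was 0.48 ± 0.47 (adjusted p = 0.479). All 6 yolk genes had that pattern, with a median ratio of -0.91 at 0 Gy, 2.45 at 200 Gy and 1.33 at 400 Gy. By edgeR 0 of 6 were called, against 5.95% of all genes higher and 3.62% lower. At an unadjusted p under 0.05 there was 1, beside 5108 of all 13487 genes. Without the 0 Gy pair 5 of the 6 yolk genes were called higher, beside 843 of all 13732 genes tested in that fit. That fit leaves out the only pair in which the yolk genes were lower in the first library. At 400 Gy vit-1 read 715 CPM in the first library and 73.3 in the second. The 6 genes together held 2.43% against 4.76% of all counts at 0 Gy, 2.35% against 0.886% at 200 Gy, and 5.72% against 3.29% at 400 Gy (exact permutation test, two-sided p = 0.75). Yolk genes and their receptor rme-2 thus lay on different sides at 0 Gy.

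**Figure D3:**
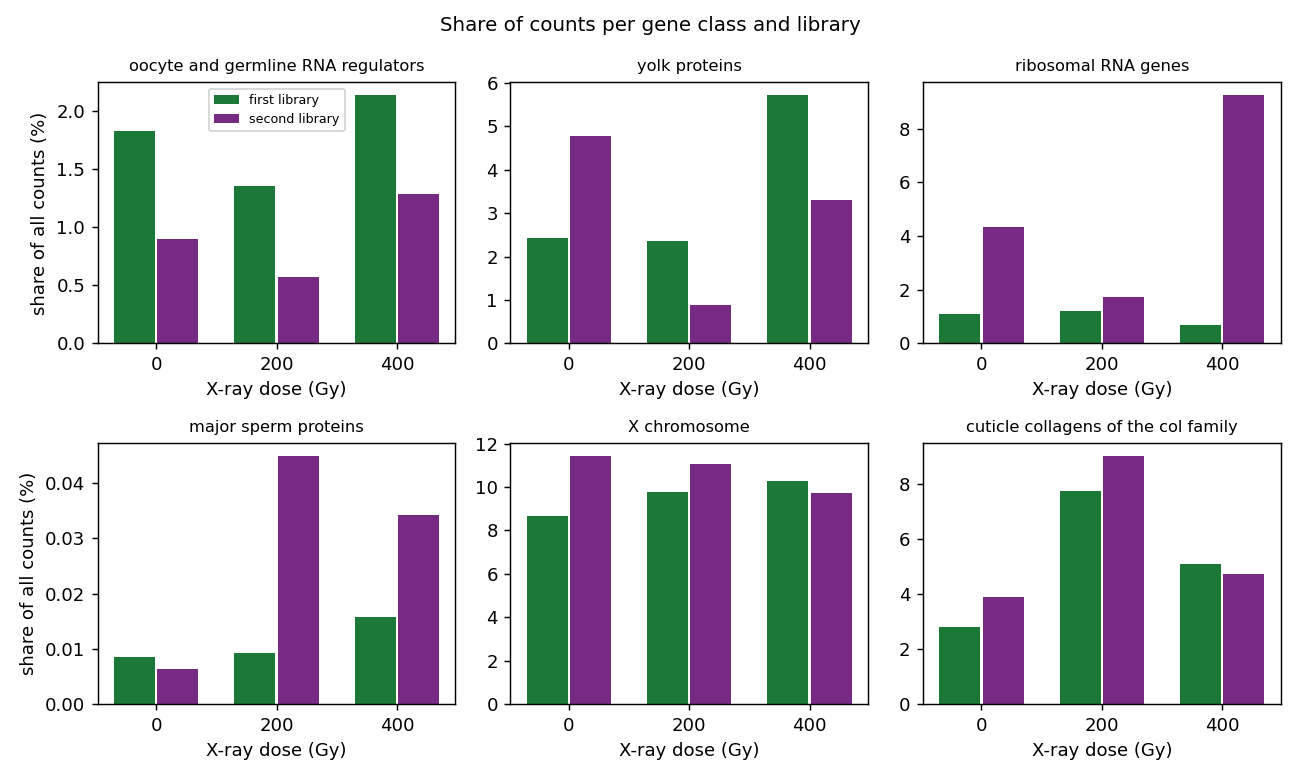
Share of all counts in percent, by X-ray dose, for 6 gene classes, with green bars for the first and purple bars for the second library. The oocyte class is larger in the first library and ribosomal RNA in the second at every dose, while yolk, sperm, X chromosome and collagen shares change sides, the last 2 of them only with ribosomal RNA in the total.

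Genes of the cuticle differed mainly at 400 Gy. The 120 tested cuticle collagens of the col family had median ratios of -0.23 at 0 Gy, 0.0040 at 200 Gy and -1.64 at 400 Gy. In the fit 1 of 120 was called lower (0.833%, against 3.62% of all genes) and 0 higher (against 5.95%). The one called was col-113, at 9.89 against 13.2 CPM at 0 Gy, 9.69 against 38 at 200 Gy, and 7.31 against 41.8 at 400 Gy (difference -1.64 ± 0.38, adjusted p = 0.0455). The adult collagen gene col-19 was at 565 against 715 CPM at 0 Gy, 3661 against 3483 at 200 Gy, and 2361 against 1634 at 400 Gy. Libraries of a dose were close for col-19 and doses were far apart, and its difference between numbers was 0.09 ± 0.26 (adjusted p = 0.824). Of 7 adult-enriched cuticle genes 0 were called by edgeR, against 5.95% of all genes higher and 3.62% lower. At an unadjusted p under 0.05 there were 2, beside 5108 of all 13487 genes. The median ratio of these 7 genes was -2.39 at 400 Gy. The 6 other than col-19 all stood below the second library there, as with bli-2 at 2.35 against 26 CPM, named after its values were seen. With ribosomal RNA left out of the total, the col family held 2.83% against 4.07% of counts at 0 Gy, 7.84% against 9.18% at 200 Gy and 5.13% against 5.22% at 400 Gy. Without the 400 Gy pair the median of the col family was -0.17 in place of -0.60.

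Among 50 tested genes of the moulting cycle and apical matrix, 1 was called higher and 1 lower, or 2% each against 5.95% and 3.62% of all genes. Lower at all 3 doses were 17, a share near the 32.6% of all genes. The fibrillin gene fbn-1 was lower, at 18.6 against 34.8 CPM at 0 Gy, 1.36 against 1.66 at 200 Gy, and 11 against 28.7 at 400 Gy (difference -0.99 ± 0.27, adjusted p = 0.0499). The patched-related gene ptr-2, which also acts in germline cell division, was higher (1.52 ± 0.24, adjusted p = 0.0455). The moulting genes mlt-10 (-0.16 ± 0.31, adjusted p = 0.728) and noah-1 (-0.46 ± 0.32, adjusted p = 0.311) were not called. Early zygotic genes had 1 of 18 called lower (5.56%, against 3.62% of all genes), the maternal SKN-1 target sdz-27 (-0.68 ± 0.18, adjusted p = 0.0484). The gene pes-10, a marker of early embryos, did not differ beyond its error (0.07 ± 0.44, adjusted p = 0.923).

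Neuronal genes were lower in the first libraries at most doses. None of 47 was higher at all 3 doses, against 27.5% of all genes, and 33 were lower at all 3, against 32.6%. Called lower were 4 (8.51%, against 3.62% of all genes) and called higher 0 (against 5.95%). The median difference of the list was -0.60. The synaptotagmin gene snt-1, a calcium sensor of synaptic vesicles, was at 17.2 against 31.9 CPM at 0 Gy, 4.64 against 12.7 at 200 Gy, and 9.14 against 15 at 400 Gy (difference -0.99 ± 0.24, adjusted p = 0.0471). The fusion gene ric-4 differed by -1.0 ± 0.21 (adjusted p = 0.0455), the neuropeptide gene nlp-21 by -0.96 ± 0.22 (adjusted p = 0.0455) and the insulin-like gene ins-7 by -1.08 ± 0.28 (adjusted p = 0.0487).

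Other somatic tissues had shares of calls near or below those of all genes, apart from somewhat more lower calls in the intestine (5.66% against 3.62%). In body wall muscle 1 of 43 genes was called lower (2.33%), the troponin gene tni-1 (-0.77 ± 0.18, adjusted p = 0.0459), and the myosin gene unc-54 was at 475 against 803 CPM at 0 Gy, 1285 against 608 at 200 Gy, and 3776 against 3435 at 400 Gy with no call (0.15 ± 0.35, adjusted p = 0.768). Of 15 pharynx genes 0 were called by edgeR and 4 had an unadjusted p under 0.05, beside 5108 of all 13487 genes. Lower at all 3 doses were 8 of the 15, against 32.6% of all genes. Of 53 intestine genes 3 were called lower and 0 higher. The ferritin gene ftn-1, which stores iron, led them at 41.1 against 80.4 CPM at 0 Gy, 1.91 against 39 at 200 Gy, and 1.31 against 11.1 at 400 Gy (-2.50 ± 0.54, adjusted p = 0.0455). The esterase gene ges-1 (-0.27 ± 0.21, adjusted p = 0.36) and the regulator elt-2 (-0.25 ± 0.27, adjusted p = 0.524) were not called.

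**Figure D4:**
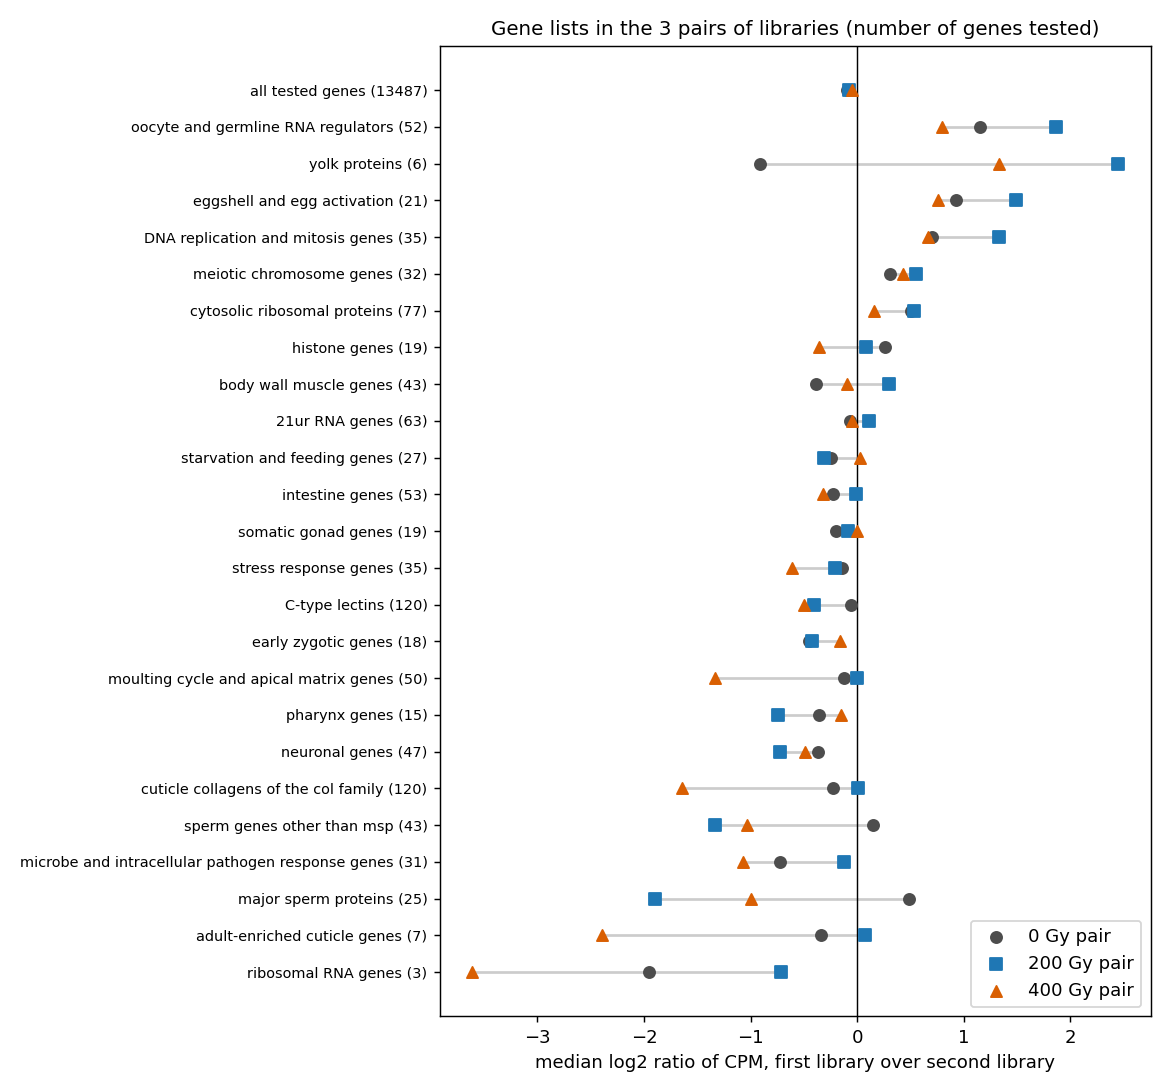
Median log2 ratio of first over second library for each gene list at 0 Gy (circles), 200 Gy (squares) and 400 Gy (triangles), with the number of genes tested in brackets. Lists of oocyte, eggshell and replication genes, among others, lie right of 0 at every dose. The ribosomal RNA and neuronal lists lie left at every dose. So do several more, such as the pharynx, early zygotic, stress and microbe response lists, and all tested genes (-0.0915, -0.0762 and -0.048 at 0, 200 and 400 Gy). The yolk and sperm lists are among those that cross 0.

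Of 35 tested stress genes, 5 were called lower in the first libraries (14.3%, against 3.62% of all genes) and 1 higher (2.86%, against 5.95%). The small heat-shock gene hsp-16.41, an inducible chaperone, was at 121 against 174 CPM at 0 Gy, 341 against 1468 at 200 Gy, and 77.5 against 324 at 400 Gy (-1.58 ± 0.33, adjusted p = 0.0455). It was lower in the first library at every dose, as was hsp-70 (-1.94 ± 0.47, adjusted p = 0.0473), which overlaps the gene uggt-2, so that reads of the 2 genes may mix. The glutathione transferase gene gst-4, a marker of the oxidative stress response, differed by -1.33 ± 0.29, and the osmotic stress gene gpdh-1 by -1.30 ± 0.20 (adjusted p = 0.0455 for each). The mitochondrial chaperone gene hsp-60 was the one called higher, at 1.09 ± 0.26 (adjusted p = 0.0464). The p53 homologue gene cep-1 was not called (0.06 ± 0.20, adjusted p = 0.857).

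Among 31 tested genes of the response to microbes and intracellular pathogens, 7 were called lower (22.6%, against 3.62% of all genes). Called higher was 1 (3.23%, against 5.95%). The list had a median of -0.85, and 18 members were lower at all 3 doses, against 32.6% of all genes. The ubiquitin ligase component gene skr-5 was at 5.07 against 8.47 CPM at 0 Gy, 12.8 against 29.6 at 200 Gy, and 2.35 against 7.60 at 400 Gy (-1.19 ± 0.27, adjusted p = 0.0455). Its relative skr-3 and the infection response gene irg-2 each differed by -0.89 ± 0.20 (adjusted p = 0.0455). Of 120 C-type lectins, a family with many members induced by bacteria, 6 were called lower and 2 higher (5% and 1.67%, against 3.62% and 5.95% of all genes), with clec-47 at -1.69 ± 0.34 (adjusted p = 0.0455). Of 27 feeding and starvation genes 3 were called lower (11.1%, against 3.62% of all genes) and 1 higher (3.7%, against 5.95%). Among those lower was the fasting-regulated transcription factor gene mxl-3 (-1.0 ± 0.19, adjusted p = 0.0455). The one higher was the methionine synthase gene metr-1 (1.13 ± 0.23, adjusted p = 0.0455).

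The largest negative difference among all named genes was in ribosomal RNA. The gene rrn-1.1 was at 0.74 against 6.27 CPM at 0 Gy, 3.00 against 7.50 at 200 Gy, and 0.35 against 21.3 at 400 Gy (-3.16 ± 0.68, adjusted p = 0.0455). The far more abundant rrn-3.1, which overlaps the gene F31C3.14, read 9049 against 34868 CPM at 0 Gy, 15328 against 18096 at 200 Gy, and 7443 against 90866 at 400 Gy. It was lower in the first library at each dose but was not called (-1.93 ± 0.61, adjusted p = 0.0623). All listed ribosomal RNA genes held 1.09%, 1.19% and 0.696% of counts in the first libraries and 4.32%, 1.72% and 9.26% in the second, at 0, 200 and 400 Gy (exact permutation test, two-sided p = 0.25, the smallest possible). This class thus moved with the library number at every dose, as the oocyte regulators did. With its genes removed before scaling the median of the oocyte regulators was 1.32. Ribosomal protein genes, whose products make up the ribosome together with that RNA, had a median of 0.41. By edgeR 0 of 77 were called, against 5.95% of all genes higher and 3.62% lower. At an unadjusted p under 0.05 there were 29 higher and 0 lower, near the share of all genes in either direction (5108 of 13487). The count from DESeq2's Wald test was 21 of 77 higher, beside 1682 of all 13487 genes.

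Histone genes and 21ur RNA genes (piRNA loci) had 0 of 19 and 0 of 63 called by edgeR, with 6 and 9 at an unadjusted p under 0.05. Both unadjusted shares lay below that of all genes (5108 of 13487). DESeq2's Wald test called 2 histone genes higher and 1 lower, and 1 21ur RNA gene higher. Of all 13487 genes that test called 1682 higher and 707 lower, so these few calls do not set either list apart. Among named genes known here only by a sequence name, C23G10.6 was at 2.37 against 5.38 CPM at 0 Gy, 3.82 against 33.9 at 200 Gy, and 2.26 against 21.5 at 400 Gy (-2.57 ± 0.41, adjusted p = 0.0455). Its name was not found in the annotation used, where 1 coding gene overlaps its position. Y39B6A.69 differed by -2.35 ± 0.37 and C01G8.1 by 1.5 ± 0.25 (adjusted p = 0.0455 for each).

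Calls were uneven over the chromosomes, with the X chromosome holding few of the genes higher in the first libraries. Germline-expressed genes are known to be rare on the X chromosome of this worm. Of 1844 tested genes on it, 1.63% were called higher in the first libraries, against 6.64% of 11642 on the autosomes. The shares for chromosomes I, II, III, IV and V were 8.24%, 7.27%, 7.41%, 6.06% and 4.52%. For genes lower in the first libraries the share was 2.71% on X and 3.76% on the autosomes, with chromosome V the richest at 6.64%. No test was made of these shares. With ribosomal RNA left out of the total, the X chromosome held 8.78% against 11.96% of counts at 0 Gy, 9.87% against 11.25% at 200 Gy and 10.34% against 10.72% at 400 Gy (exact permutation test, two-sided p = 0.25, the smallest possible). On X lie 3 of the 52 oocyte regulators, 12 of the 47 neuronal genes, 13 of the 43 body wall muscle genes and 8 of the 53 intestine genes. The count for all tested genes is 1844 of 13487. Whether the germline content of the libraries bears on the calls on X was not tested. Genes called higher had a median coding length of 1833 bases, those called lower 855 and those not called 1074. Across genes the ratio rose with length, with a Spearman correlation of 0.0685 at 0 Gy, 0.366 at 200 Gy and 0.282 at 400 Gy. With the trend on length removed, the median of the oocyte regulators was 1.21 and 50 of 52 were called higher, beside 1950 of all 13487 genes.

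**Figure D5:**
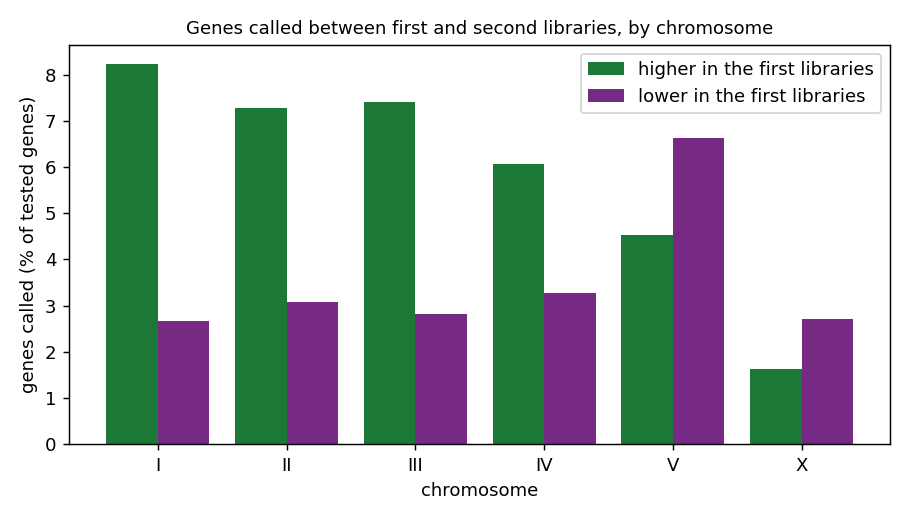
Percent of tested genes called on each chromosome, higher (green) or lower (purple) in the first libraries. The green bar falls from 8.24% on chromosome I to 1.63% on X, and the tallest purple bar, 6.64%, is on chromosome V.

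The library number bears on the comparisons between doses. With a model of dose alone, 2269 genes were called between 200 and 0 Gy (15.7% of 14417 tested), 7 between 400 and 0 Gy (0.0486%) and 4495 between 400 and 200 Gy (31.2%). With the library number added as a replicate block, the counts were 6444 (44.7%), 3586 (24.9%) and 7640 (53%). All genes called without the block were also called with it, namely 2269, 7 and 4495. The common biological coefficient of variation was 35.1% without the block and 22.2% with it. The comparison of 400 with 0 Gy had 3244 genes at an unadjusted p under 0.05 without the block, and 5822 with it. The comparisons share libraries and are not independent of each other. The labels do not state that same-numbered libraries belong together, so the counts with the block rest on an assumption.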

How the data were processed

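RNA sequencing counts of 6 libraries were analysed. Trizol extraction and an Illumina TruSeq RNA kit are named in the protocols, per the labels, and this kit keeps no strand. The deposited table gives read counts and RPKM per gene and library. Each deposited RPKM value equals, within 1%, the count divided by coding length and library total, so RPKM was not tested. Of the deposited lengths of tested genes 91.6% are multiples of 3. Build WBcel235, the aligner TopHat2 (2.0.13) and bcl2fastq appear there, per the submitters' processing notes. Read counter, annotation release, strand setting and filters: not given in the sources used here.

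Genes were filtered by edgeR's filterByExpr (13487 kept) and TMM factors ran from 0.767 to 1.24. The library number was tested by the quasi-likelihood test of edgeR 4.0.16 in R 4.3.3, coded first minus second, with dose as a block (2 residual degrees of freedom) and Benjamini-Hochberg adjustment over all genes at 0.05. The common biological coefficient of variation was 22%. Ratios within a dose used a prior count of 2. Chi-square values of first against second library, divided by their degrees of freedom, were 60.3, 95.2 and 113, so the libraries of a dose were not copies of each other. Shares of counts were tested by swapping numbers within doses (8 arrangements). The correlation across genes of the deviations of same-numbered libraries was over 0.1 for each pair of doses (0.406 to 0.603). It cannot show that same-numbered libraries belong together, since each dose has 1 pair and genes are not independent. The labels do not state a pairing.

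The comparison, the 26 gene lists and the rule for named genes were chosen with earlier results of these data known, so no set test was made. Of 637 genes written in them by name, 629 were found, 22 by an older name. A list of small nucleolar and spliceosomal RNA genes matched 0 names, and the mitochondrial genome had 1 gene tested and 0 called. Named were the 10 largest differences in each direction past the threshold (means of 5 CPM or more, no overlap), up to 4 called members per list by smallest p, and genes of prior interest. Not all are printed. Alternatives were DESeq2 1.42.0 size factors and Wald test, upper-quartile scaling, filters, no dose block, a loess length correction (span 0.3), removal of ribosomal RNA genes, each dose's pair left out, a threshold of 0.01, a minimum log2 difference of 1 and a prior count of 0.5. The steps were tested on simulated counts.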

Additional observations from a re-analysis of the deposited data

Results flagged for a closer look

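For 5 lists the median ratio of first over second library lay on opposite sides of 0 at different doses and at least 1 apart on the log2 scale. Each dose has 1 pair of libraries, so none of these differences between doses was tested. The gap between the highest and the lowest dose was 3.36 for yolk proteins, 2.46 for adult-enriched cuticle genes and 2.38 for major sperm proteins. It was 1.64 for the cuticle collagens of the col family and 1.48 for sperm genes other than msp. Yolk and sperm lists had 0 Gy on one side and both irradiated doses on the other, whereas the 2 cuticle lists had 400 Gy far below the other doses. In the cuticle lists the only positive medians, at 200 Gy, were near 0 (0.0718 for adult-enriched genes, 0.0040 for the col family).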

How the results depend on the processing

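The count of 1291 genes (803 higher, 488 lower in the first libraries) moved with most settings. It was 2206 with DESeq2 size factors (1488 higher), 2949 with upper-quartile scaling (2228 lower), 2389 by the DESeq2 Wald test (1682 higher), 2613 with no filter (1613 and 1000), 2008 at a mean of at least 5 CPM (1133 lower) and 2561 with the length correction (1950 higher). It was 742 with a minimum difference of 1 (423 and 319), and 0 in either direction at a threshold of 0.01, with ribosomal RNA genes removed (4983 unadjusted) or with no dose block (361 unadjusted). The smallest adjusted p with ribosomal RNA genes removed was 0.0525. Leaving out one dose's pair gave 0 to 2236 genes, 0 to 1226 higher and 0 to 1393 lower, with 0 without the 200 Gy pair (3249 unadjusted). The oocyte regulators called then ranged from 0 to 43. The causes were not tested. The fitted medians reported for the oocyte, eggshell, replication, sperm, yolk, neuronal and collagen lists kept their sign in all fits. These fits share libraries, so this agreement is no sign of stability. By single dose the medians of the sperm and yolk lists changed sign, as with yolk at -0.91, 2.45 and 1.33 at 0, 200 and 400 Gy. For the col family the only positive median, 0.0040 at 200 Gy, was near 0. With the library number as a replicate block the dose comparisons called 6444, 3586 and 7640 genes in place of 2269, 7 and 4495. With 3 pairs, differences of low-count sperm genes rest on few reads.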
